A study of Mus musculus with 9 samples.

Results

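The genes described here are 9 fatty acid desaturases and elongases of mouse liver: the desaturases Scd1, Scd2, Fads1 and Fads2 and the elongases Elovl1, Elovl2, Elovl3, Elovl5 and Elovl6. They were taken by symbol from the 54007 genes of the expression table, and all 9 passed the filter on low values. RNA was sequenced from whole liver of C57BL/6 mice on postnatal day 98, with 3 libraries in each of 3 groups. The control group is labelled only as control. The HFD group received a high-fat diet. The HFD+Pc group received the same kind of diet together with gavage of the gut bacterium Papillibacter cinnamivorans, so both diet groups share the high-fat diet. The composition of the diets, the sex of the mice and whether control and HFD mice were gavaged with a vehicle are not given in the sources used here. Mice entered at 6 weeks of age, 15 per group. Nothing in the labels tells whether each library came from a single animal or from pooled animals, so p-values here reflect only library-to-library spread, which may be technical. Levels are FPKM (fragments per kilobase of transcript per unit of library size), a value per length that allows levels of different genes to be compared. Differences are on the log2(FPKM + 1) scale with their standard errors.

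Fatty acids made in the liver or taken from the diet are lengthened and desaturated in the endoplasmic reticulum. The elongases (ELOVL proteins) catalyse the condensation of an acyl-CoA with malonyl-CoA, which sets the speed and the substrate choice of the elongation cycle. The desaturases place double bonds, drawing electrons from cytochrome b5. SCD enzymes make monounsaturated oleate and palmitoleate from saturated acids, and the FADS enzymes work with ELOVL5 and ELOVL2 to turn the essential dietary acids into arachidonic and docosahexaenoic acid. Many of these genes are textbook targets of the transcription factors SREBP-1c and LXR, and dietary polyunsaturated fat is known to lower their mRNA.

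Reads recovered from the FPKM numbered 16557617 to 18925016 per library, in which 10323 to 10587 genes had at least 1 FPKM. The summed FPKM of 10 hepatocyte markers was 55600 to 56900 in control, 38200 to 41900 in HFD and 44400 to 59000 in HFD+Pc libraries, and none of the markers was at 0. Most of each sum was Alb (38000 to 39200, 26100 to 27100 and 29000 to 41700 FPKM). In HFD against control 9 of the 10 differences were negative and 1 positive, and only Apoa1 passed, lower. In HFD+Pc against control Serpina1a was higher and Hnf4a and Apoa1 were lower. In whole tissue, fewer cells of a type and less RNA per cell cannot be told apart. One library stood apart for the genes described here. HFD replicate 3 was at least 1.5 times above both other HFD libraries for 6 of the 9 genes, against 275 of 10988 tested genes (2.5%). Its recovered total, 16557617 reads, was close to the 16595165 of HFD replicate 2, and its hepatocyte marker sum of 38900 FPKM lay between those of the other HFD libraries. Results that rest on the HFD group are therefore given with and without it. Since the values of these same genes singled it out, the p-values and counts without it depend on that choice and are given as a description only.

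Scd1 was by far the most abundant of the 9 mRNAs. In control liver it stood at 4569, 4900 and 6869 FPKM in replicates 1, 2 and 4. In HFD liver it stood at 225.8 and 241.4 FPKM in replicates 1 and 2 and at 3173 FPKM in replicate 3. In HFD+Pc liver it stood at 2609, 2077 and 2111 FPKM in replicates 1, 3 and 4. Every HFD and HFD+Pc library lay below every control library, but 1 HFD library lay above all HFD+Pc libraries and the other 2 lay far below them. Set against the control mean, HFD replicates 1 and 2 held 4.15% and 4.43%, HFD replicate 3 held 58.3%, and the HFD+Pc libraries held 38.1% to 47.9%. In reads, this single mRNA made up 2.21% to 3.37% of each control library, 0.12% (95% Wilson interval 0.118% to 0.121%) of HFD replicate 1, 1.58% (1.57% to 1.58%) of HFD replicate 3 and 0.999% to 1.29% of the HFD+Pc libraries. Intervals and read numbers cover counting error only.

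Scd1 fell in HFD against control, by 3.26 ± 0.85 on the log2 scale (95% interval -5.18 to -1.34, limma adjusted p = 0.0443). Control averaged 5446 ± 1240 FPKM (SD, n = 3) and HFD 1213 ± 1700 FPKM. The call was lost when any single library other than HFD replicate 3 was left out, with adjusted p up to 0.13. It was also lost with limma-voom on the recovered reads (adjusted p = 0.12) and with no filter on low values (adjusted p = 0.133). The same held in limma with a pseudocount of 0.1 (adjusted p = 0.0542) and a filter of 0.1 FPKM (0.0686). It held too with only those 2 groups (0.0955) and with a block for replicate numbers (0.0649). With HFD replicate 3 left out the difference was -4.51. In HFD+Pc against HFD the difference was 2.01 ± 0.85 (0.10 to 3.93), with an adjusted p of 0.295. It was 3.27 without HFD replicate 3, with an adjusted p of 0.000305. HFD+Pc averaged 2265 ± 298 FPKM. Against control its difference was -1.25 ± 0.85 (-3.17 to 0.67, adjusted p = 0.312), in a fit whose estimate of the spread includes the HFD libraries. It passed without HFD replicate 3 (adjusted p = 0.00285) and in a fit of those 2 groups alone (adjusted p = 0.00511).

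**Figure D1:**
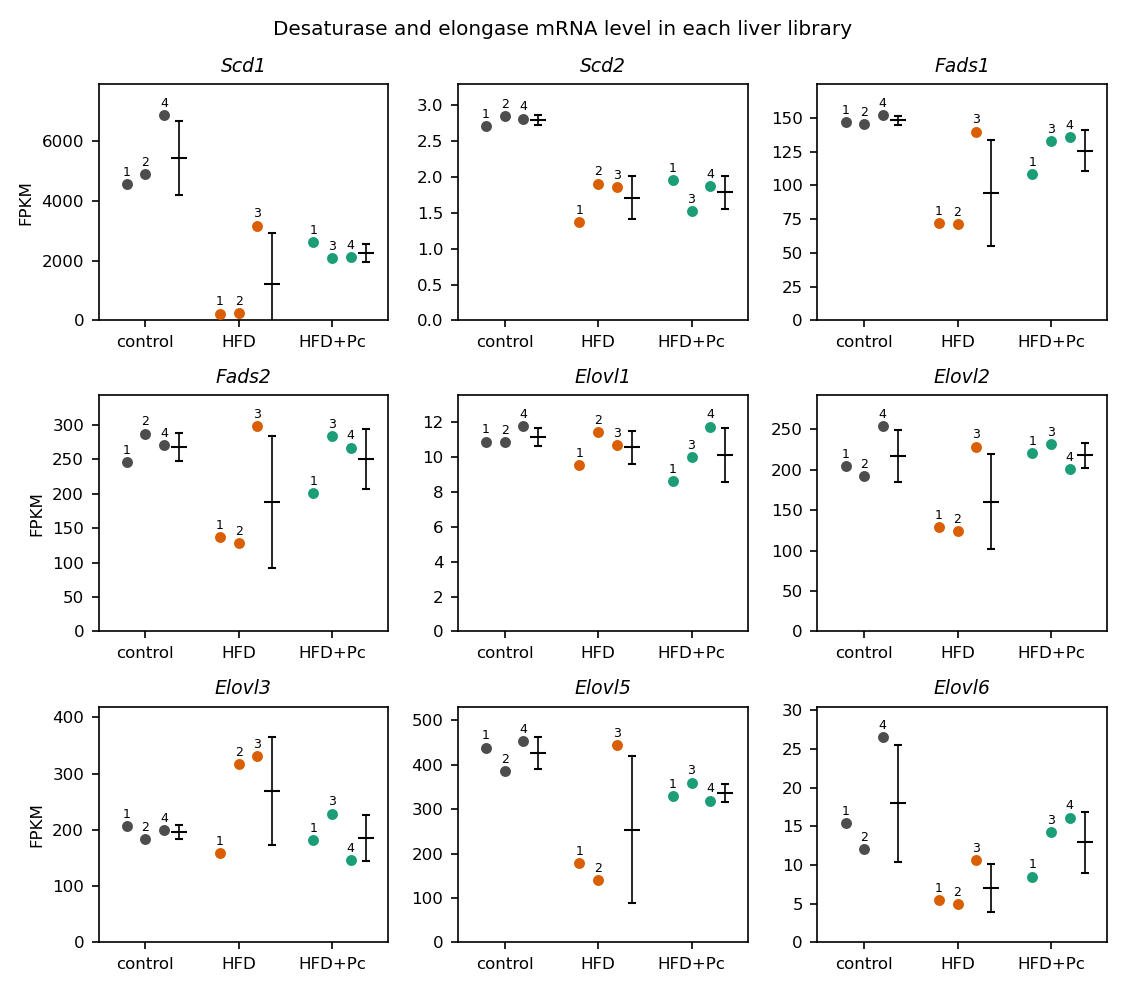
FPKM of each gene (vertical axis, linear from 0) in the 9 libraries, by group. Points are libraries with their replicate number, and the bar beside each group is the mean ± SD of 3 libraries, cut at 0 for Scd1 in HFD. HFD replicate 3 sits just below the control range for Fads1, inside it for Elovl2 and Elovl5 and above it for Fads2, where HFD replicates 1 and 2 are low, while Scd2 is low in all diet libraries.

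Scd2, the isoform known from brain and early life, was present at a very low level in the same livers. It stood at 2.71, 2.844 and 2.813 FPKM in control replicates 1, 2 and 4. It stood at 1.366, 1.908 and 1.861 FPKM in HFD replicates 1, 2 and 3, and at 1.957, 1.518 and 1.875 FPKM in HFD+Pc replicates 1, 3 and 4. All 6 diet libraries lay below all 3 control libraries, and HFD replicate 3 did not stand apart. Scd2 fell in HFD against control by 0.49 ± 0.10 (adjusted p = 0.0222) and in HFD+Pc against control by 0.45 ± 0.10 (adjusted p = 0.0141). HFD+Pc and HFD differed by 0.04 ± 0.10 (-0.19 to 0.27, adjusted p = 0.886). These values rest on 137 to 278 reads per library. The first call was lost when control replicate 1, 2 or 4 or HFD replicate 1 was left out (highest adjusted p 0.0703) and with no filter on low values (adjusted p = 0.0719), and the second without HFD+Pc replicate 3 (adjusted p = 0.0547). Both were lost in limma with a block for replicate numbers (adjusted p = 0.109 and 0.089).

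The Scd2 reads carry an uncertainty from its neighbour. The Scd1 and Scd2 transcripts are 86.8% identical over 1261 aligned bases and share an unbroken run of 147 bases, and how the authors placed reads that match both is not given in the sources used here. Scd1 had 20265, 20270 and 260952 reads in HFD replicates 1, 2 and 3, and Scd2 had 137, 179 and 171. In control replicates 1, 2 and 4 Scd1 had 418079, 407281 and 607818 reads, and Scd2 had 277, 264 and 278. Over the 9 libraries Scd1 and Scd2 rose and fell together in part (Pearson's r = 0.7, Spearman's rho = 0.82). The placement of shared reads was not tested. The within-library ratio of Scd1 to Scd2 was 1690, 1720 and 2440 in control, 165, 126 and 1700 in HFD and 1330, 1370 and 1130 in HFD+Pc libraries. On the log2 scale the difference was -2.77 for HFD against control and -0.80 for HFD+Pc against control, with groups that did not overlap (exact two-sided permutation p = 0.1 in both, the smallest that 3 against 3 allows, and 0.4 after adjustment over 12 such tests). Markers of other liver cells were measured beside it. The summed FPKM of 8 endothelial markers was 107 to 118 in control, 77.9 to 96.6 in HFD and 85.8 to 87.1 in HFD+Pc, and that of 9 stellate cell markers was 110 to 122, 90.0 to 101 and 89.9 to 110. Much of the stellate sum was Ecm1 (48.4 to 58.4, 30.9 to 42.1 and 34.1 to 40.6 FPKM in the same order), so it follows that gene closely. Of the stellate markers 6 were negative and 3 positive in HFD against control, and Lrat was higher in HFD+Pc than in control while Cygb and Ecm1 were lower. Other lists went the other way or overlapped in HFD against control. The sum of 7 B and plasma cell markers was 24.3 to 36.8 in control, 53.1 to 87.0 in HFD and 29.6 to 41.1 in HFD+Pc. In the same order, that of 6 cholangiocyte markers was 17.8 to 25.5, 23.8 to 39.5 and 19.5 to 32.4. That of 12 macrophage markers was 436 to 604, 431 to 583 and 314 to 490. For 6 erythroid markers it was 254 to 397, 233 to 359 and 169 to 233, so that HFD+Pc lay below control. For 10 adipocyte markers it was 163 to 740, 682 to 1010 and 650 to 1020, most of it Car3 (157 to 736, 669 to 969 and 639 to 1010). Of the 4 tested adipocyte genes only Cfd passed, higher in both diet groups than in control (0 to 0.128, 5.23 to 21.8 and 2.33 to 5.95 FPKM). None of these markers was at 0 in all libraries, and their part in the Scd2 result was not tested.

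The other genes of the Scd cluster were too low to test. Scd3 stood at 0.617, 0.298 and 2.57 FPKM in control, 0.0153, 0.0492 and 0.335 FPKM in HFD and 0.161, 0.218 and 0.267 FPKM in HFD+Pc libraries, and its control replicate 4 was also the library with the most Scd1. Its transcript is 90.4% identical to Scd1 over 1084 bases, so the same uncertainty holds. Scd4 did not exceed 0.158 FPKM. The nearest genes outside the cluster, chosen by position after values were seen, did not pass in any comparison: Bloc1s2 was 2.91 to 4.98 FPKM over the 9 libraries and Sec31b 0.914 to 2.06, and Pkd2l1 and Wnt8b were below the filter. Scd1 made up at least 99.2% of the summed FPKM of the family in every library.

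Fads2 carries out the first desaturation of linoleic and alpha-linolenic acid, and Fads1 the later one that yields arachidonic and eicosapentaenoic acid. The genes lie side by side on chromosome 19. Fads1 stood at 146.9, 145.4 and 151.9 FPKM in control, 71.78, 71.27 and 139.8 FPKM in HFD and 108.3, 132.8 and 135.9 FPKM in HFD+Pc libraries, in the order of their replicate numbers. All HFD and HFD+Pc libraries lay below control, HFD replicate 3 only narrowly. Fads2 stood at 246, 287.4 and 270.5 FPKM in control, 137.4, 128.7 and 298.2 FPKM in HFD and 200.6, 283.7 and 266.9 FPKM in HFD+Pc libraries. Here HFD replicate 3 was the highest of the 9 libraries, and HFD replicates 1 and 2 were the lowest.

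Neither Fads gene passed in any comparison with all libraries. In HFD against control the differences were -0.72 ± 0.23 for Fads1 (-1.25 to -0.19, adjusted p = 0.0834) and -0.62 ± 0.29 for Fads2 (-1.27 to 0.04, adjusted p = 0.204). In HFD+Pc against HFD they were 0.48 ± 0.23 (-0.05 to 1.0, adjusted p = 0.362) and 0.51 ± 0.29 (-0.15 to 1.16, adjusted p = 0.439). Leaving out HFD replicate 3, both were lower in HFD than in control (-1.04, adjusted p = 0.00539, and -1.0, adjusted p = 0.0147) and higher in HFD+Pc than in HFD (0.80, adjusted p = 0.0173, and 0.89, adjusted p = 0.0366). HFD+Pc differed from control by -0.24 ± 0.23 for Fads1 (-0.77 to 0.28) and -0.11 ± 0.29 for Fads2 (-0.76 to 0.54).

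The ratio of the Fads mRNAs stayed within 0.468 to 0.597, although HFD replicate 3 exceeded the next HFD library 2.17-fold for Fads2 and 1.95-fold for Fads1. Fads1 over Fads2 was 0.597, 0.506 and 0.562 in control, 0.523, 0.554 and 0.469 in HFD and 0.540, 0.468 and 0.509 in HFD+Pc libraries. On the log2 scale HFD differed from control by -0.10, HFD+Pc from HFD by -0.03 and HFD+Pc from control by -0.13 (exact two-sided permutation p = 0.4, 0.7 and 0.3). Their transcripts share no run longer than 17 bases. Fads3, a family member that acts on other acyl chains, stood at 2.45 to 3.6 FPKM in control, 2.13 to 2.51 in HFD and 1.99 to 3.19 in HFD+Pc libraries and passed in none of the 3 comparisons. It shares an unbroken run of 54 bases with the far more abundant Fads2, so its reads are uncertain. Of the neighbours outside this cluster, Tmem258 was lower in HFD+Pc than in control (-0.80, adjusted p = 0.00591) and did not pass in the other comparisons, and Best1, Rab3il1 and Fen1 were below the filter.

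The promoter windows below cover the 250 bases before the RefSeq transcription start (build GRCm38.p6, read 5′ to 3′ on the gene's strand) of 4 genes that were lowest in HFD replicates 1 and 2 (Elovl5, Fads2, Elovl2 and Elovl6) and of Elovl1, which did not share that pattern. For Elovl2 and Elovl1, which have an entry for 2 starts, the window of the start that lies farther upstream is shown. Capitals mark matches on either strand to 4 motifs of known lipogenic factors: TCACNCCAC, a form of the sterol response element bound by SREBP, CCAAT, bound by NF-Y, the E-box CACGTG, bound by USF and related factors, and GGGCGG, bound by Sp1.
Elovl5 (chr9:77917115-77917364, plus strand): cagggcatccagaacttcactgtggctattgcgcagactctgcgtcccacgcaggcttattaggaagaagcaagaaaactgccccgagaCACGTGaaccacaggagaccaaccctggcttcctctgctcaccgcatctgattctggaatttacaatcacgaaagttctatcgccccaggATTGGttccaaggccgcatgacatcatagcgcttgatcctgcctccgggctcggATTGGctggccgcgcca
Fads2 (chr19:10101504-10101753, minus strand): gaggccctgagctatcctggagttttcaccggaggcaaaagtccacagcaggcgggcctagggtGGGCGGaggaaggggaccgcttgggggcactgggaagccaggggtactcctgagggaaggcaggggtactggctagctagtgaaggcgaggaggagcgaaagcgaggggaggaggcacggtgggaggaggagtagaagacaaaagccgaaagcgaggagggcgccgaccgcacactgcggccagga
Elovl2 (chr13:41220404-41220653, minus strand): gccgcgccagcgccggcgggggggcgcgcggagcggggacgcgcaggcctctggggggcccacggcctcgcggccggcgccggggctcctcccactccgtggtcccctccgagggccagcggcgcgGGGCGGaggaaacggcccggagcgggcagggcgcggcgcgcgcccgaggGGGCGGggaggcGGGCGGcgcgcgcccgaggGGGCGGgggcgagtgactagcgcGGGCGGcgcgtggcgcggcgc
Elovl6 (chr3:129532136-129532385, plus strand): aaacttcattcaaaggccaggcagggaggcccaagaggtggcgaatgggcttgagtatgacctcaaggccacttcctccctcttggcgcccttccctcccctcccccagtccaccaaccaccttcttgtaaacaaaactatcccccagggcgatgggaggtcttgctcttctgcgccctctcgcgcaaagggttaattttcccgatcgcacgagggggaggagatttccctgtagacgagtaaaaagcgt
Elovl1 (chr4:118427843-118428092, plus strand): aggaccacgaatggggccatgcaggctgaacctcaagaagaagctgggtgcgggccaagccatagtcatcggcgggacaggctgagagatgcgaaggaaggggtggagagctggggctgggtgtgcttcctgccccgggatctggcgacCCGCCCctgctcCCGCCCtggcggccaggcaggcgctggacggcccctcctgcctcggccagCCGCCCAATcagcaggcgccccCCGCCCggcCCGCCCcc
The Elovl5 window holds CCAAT on the minus strand 71 and 17 bases before the start and CACGTG 161 bases before it. The Fads2 window holds 1 GGGCGG, 186 bases before the start, the Elovl2 window holds 5 GGGCGG and none of the other motifs, and the Elovl6 window holds none of the 4. The Elovl1 window holds 1 CCAAT and 5 GGGCGG, of which 1 shares bases with the CCAAT. The windows not shown hold 2 GGGCGG for Elovl1 and none of the 4 motifs for Elovl2. Over 32851 windows of the same length, 33.8% hold CCAAT, 6.02% CACGTG, 32.7% GGGCGG and 1.05% TCACNCCAC. No window of the 5 genes with an entry holds TCACNCCAC. A match describes letters in this window only.

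Elovl5 lengthens the polyunsaturated acids made by Fads2 and was the most abundant elongase in control liver. It stood at 438.8, 385.3 and 454 FPKM in control, 178.6, 140 and 443.6 FPKM in HFD and 329.3, 359.7 and 319.5 FPKM in HFD+Pc libraries. HFD replicates 1 and 2 were the lowest of the 9, HFD replicate 3 lay within the control range, and every HFD+Pc library lay between. The differences were -0.93 ± 0.35 in HFD against control (-1.71 to -0.14, adjusted p = 0.125), 0.59 ± 0.35 in HFD+Pc against HFD (-0.20 to 1.37, adjusted p = 0.455) and -0.34 ± 0.35 in HFD+Pc against control (-1.13 to 0.45, adjusted p = 0.507). Without that library the first was -1.42 (adjusted p = 0.00441) and the second 1.08 (adjusted p = 0.0113).

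Elovl2 takes over from Elovl5 for the longest polyunsaturated acids on the way to docosahexaenoic acid. It stood at 204.6, 192.2 and 253.7 FPKM in control, 129.2, 124.1 and 228.6 FPKM in HFD and 220.5, 231.6 and 200.9 FPKM in HFD+Pc libraries. The HFD+Pc libraries lay within the control range, and HFD replicates 1 and 2 lay below all others. The difference was -0.48 ± 0.22 in HFD against control (adjusted p = 0.192), 0.49 ± 0.22 in HFD+Pc against HFD (adjusted p = 0.321) and 0.01 ± 0.22 in HFD+Pc against control (-0.48 to 0.51, adjusted p = 0.974). Leaving out HFD replicate 3, the first was -0.76 (adjusted p = 0.0197) and the second 0.77 (adjusted p = 0.036).

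The balance between the polyunsaturated elongases was compared within libraries. Elovl2 over Elovl5 was 0.466, 0.499 and 0.559 in control, 0.723, 0.886 and 0.515 in HFD and 0.669, 0.644 and 0.629 in HFD+Pc libraries. All 3 HFD+Pc ratios lay above all 3 control ratios, while the HFD and control ratios overlapped through HFD replicate 3. On the log2 scale HFD+Pc was above control by 0.35 (exact two-sided permutation p = 0.1, the smallest possible, and 0.4 after adjustment over the 12 tests), and HFD was above control by 0.45 (exact p = 0.2).

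Elovl6 lengthens palmitate to stearate, the substrate that Scd1 turns into oleate. It stood at 15.41, 12.05 and 26.52 FPKM in control, 5.5, 4.937 and 10.59 FPKM in HFD and 8.519, 14.25 and 16.12 FPKM in HFD+Pc libraries. All HFD libraries lay below all control libraries, and control replicate 4, which was also highest for Scd1, stood above the rest. The difference was -1.24 ± 0.34 in HFD against control (-2.02 to -0.46), with an adjusted p of 0.0533. It was 0.82 ± 0.34 in HFD+Pc against HFD (0.05 to 1.60, adjusted p = 0.291) and -0.42 ± 0.34 in HFD+Pc against control (-1.19 to 0.36, adjusted p = 0.406). With HFD replicate 3 left out, the first was -1.54 (adjusted p = 0.0385) and the second 1.12 (adjusted p = 0.139). The ratio of Elovl6 to Elovl5 was 0.0313 to 0.0584 in control, 0.0239 to 0.0353 in HFD and 0.0259 to 0.0505 in HFD+Pc libraries, and these ranges overlapped.

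Elovl3 acts on saturated and monounsaturated acyl chains, and in mouse liver its mRNA is known to be higher in males and to cycle over the day. It stood at 207, 183.1 and 199.5 FPKM in control, 159, 317.3 and 331 FPKM in HFD and 181.3, 228.7 and 146.1 FPKM in HFD+Pc libraries. HFD replicates 2 and 3 were the highest of the 9 and HFD replicate 1 lay below control, so that for Elovl3 replicate 3 did not stand alone. The difference was 0.38 ± 0.27 in HFD against control (-0.23 to 0.99, adjusted p = 0.394), -0.49 ± 0.27 in HFD+Pc against HFD (-1.10 to 0.12, adjusted p = 0.426) and -0.11 ± 0.27 in HFD+Pc against control (adjusted p = 0.806). The summed FPKM of a list of 11 male-biased liver genes, of which Elovl3 is 1, was 3240 to 3520 in control, 4020, 8330 and 5290 in HFD replicates 1, 2 and 3 and 4500 to 6530 in HFD+Pc. Most of each sum was Mup20 (1390 to 1880, 2400 to 4540 and 2410 to 3910 FPKM) and Serpina1e (522 to 1130, 866 to 2190 and 1070 to 2110 FPKM). In HFD against control only Cyp4a12a of the list passed, higher. In HFD+Pc against control Cyp4a12a, Mup20 and Cyp4a12b were higher and Gstp1 lower. Among clock genes, Nr1d1 and Nr1d2 were higher and Per1 lower in HFD than in control (named after their values were seen). Their part in the Elovl3 values was not tested.

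Elovl1, an elongase of saturated very long chains that most tissues express, stood at 10.87, 10.84 and 11.76 FPKM in control, 9.517, 11.43 and 10.69 FPKM in HFD and 8.622, 9.98 and 11.73 FPKM in HFD+Pc libraries. The 3 groups overlapped. Its differences were -0.08 ± 0.11 (-0.32 to 0.17) in HFD against control, -0.06 ± 0.11 (-0.31 to 0.18) in HFD+Pc against HFD and -0.14 ± 0.11 (-0.38 to 0.11) in HFD+Pc against control, with adjusted p of 0.687, 0.829 and 0.382. Elovl4 and Elovl7 did not exceed 0.0189 and 0.228 FPKM.

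**Figure D2:**
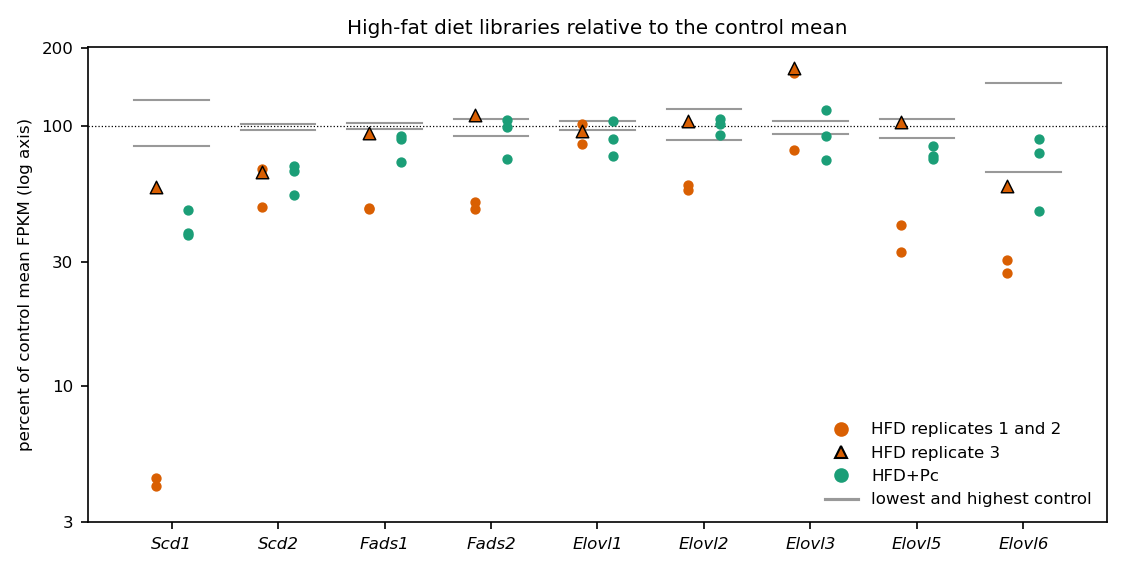
Level of each gene in the HFD and HFD+Pc libraries as a percent of the control mean (vertical axis, logarithmic), with grey lines at the lowest and highest control library. Triangles mark HFD replicate 3: it stands at 94.5% for Fads1, 111% for Fads2, 105% for Elovl2 and 104% for Elovl5, where HFD replicates 1 and 2 lie between 32.9% and 59.6%.

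Counted over the 9 genes, HFD against control gave 0 higher and 2 lower (Scd1 and Scd2), where 4.61% of all tested genes were higher and 5.35% lower (9.97% in either direction). Of the 9 differences, 8 were negative, with a median of -0.62 against 0.00 over all tested genes. The groups did not overlap for 4 genes, all lower in HFD (Scd1, Scd2, Fads1 and Elovl6), where 16.4% of all tested genes had such groups (16.5% higher, and 32.9% in either direction). Without HFD replicate 3, 7 genes were lower, where 2.8% of all tested genes were. The exceptions were Elovl1 and Elovl3. Nothing is read from the gap to that share, since 6 of the 9 genes singled out the library that was left out.

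HFD+Pc against HFD gave 0 higher and 0 lower of the 9 by limma, where 0.628% of all tested genes passed. At an unadjusted p under 0.05 there were 2 (Scd1 and Elovl6), where 15.6% of all tested genes were, and limma-voom on the recovered reads also gave 0. Of the 9 differences, 7 were positive, with a median of 0.49 against 0.01 over all tested genes, and the groups overlapped for all 9, where they did not for 19.8% of all tested genes (10.2% higher and 9.56% lower). Without HFD replicate 3, 5 genes were higher (Scd1, Fads1, Fads2, Elovl2 and Elovl5), where 0.358% of all tested genes were. All 5 are among the 6 genes that singled out that library, so this count follows in part from the choice. This comparison shares its HFD libraries with the one before, so the values of HFD replicates 1 and 2 enter both.

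HFD+Pc against control gave 0 higher and 1 lower (Scd2), where 11.1% of all tested genes were higher and 11.9% lower (23.1% in either direction). The groups did not overlap for 4 genes, all lower in HFD+Pc (Scd1, Scd2, Fads1 and Elovl5), where 20.8% of all tested genes had such groups (22.1% higher, and 42.8% in either direction). The median difference of the 9 was -0.24 against 0.01 over all tested genes. With HFD replicate 3 left out, 2 were lower (Scd1 and Scd2) and 0 higher, where 12.7% of all tested genes were lower and 11.6% higher.

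**Figure D3:**
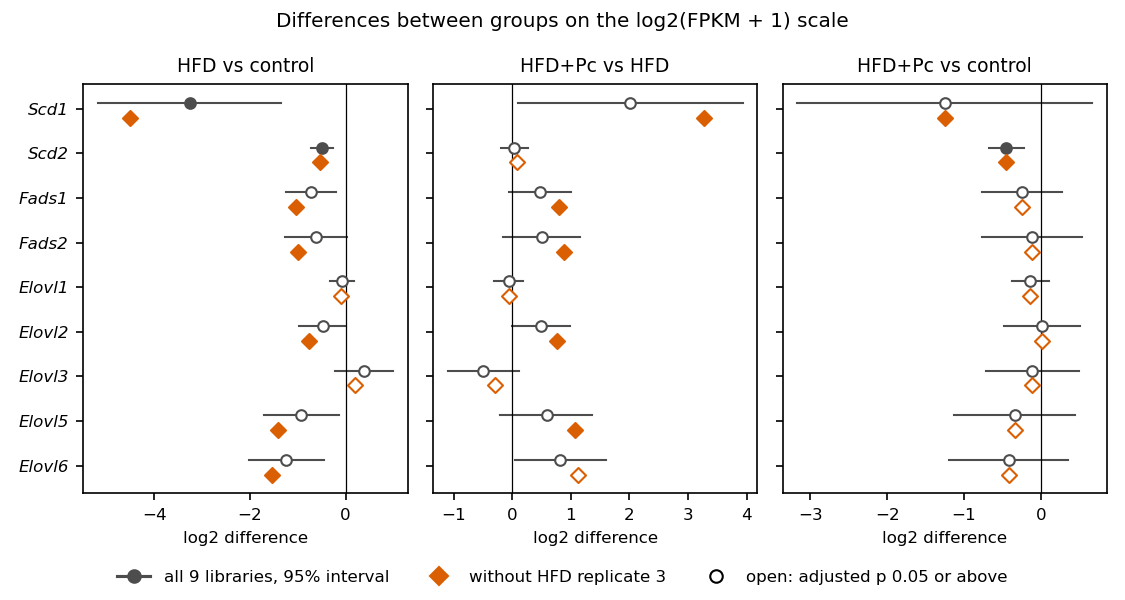
Difference of each gene on the log2(FPKM + 1) scale (horizontal axis) in the 3 comparisons. Grey circles with 95% intervals are from all 9 libraries and orange diamonds from the 8 left without HFD replicate 3, filled where the adjusted p is under 0.05. In HFD against control 2 circles and 7 diamonds are filled, and in HFD+Pc against HFD 0 circles and 5 diamonds.

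The order of the levels was the same in control and HFD+Pc liver: Scd1, Elovl5, Fads2, Elovl2, Elovl3, Fads1, Elovl6, Elovl1 and Scd2. In both groups the ranges of Fads2 and Elovl2 and of Elovl2 and Elovl3 overlapped, and in HFD+Pc those of Elovl6 and Elovl1 did too. In HFD liver Elovl3 came second by its mean and Elovl6 came after Elovl1. The ranges of all neighbours from Scd1 down to Fads1 overlapped there, as did those of Elovl1 and Elovl6. Fads1 stood apart from Elovl1, and Elovl6 from Scd2.

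The composition of the elongase mRNA was also compared, as the share of each gene in the summed Elovl FPKM of a library, a measure added after values had been seen. Elovl3 made up 23.6%, 23.4% and 21.1% of the summed Elovl FPKM in control, 33%, 53.1% and 32.3% in HFD and 24.2%, 27.1% and 21.0% in HFD+Pc libraries. All 3 HFD libraries, replicate 3 included, lay above the other 6. Elovl5 made up 50%, 49.2% and 48.0% in control, 37.1%, 23.4% and 43.3% in HFD and 44.0%, 42.6% and 46.0% in HFD+Pc libraries, so that every diet library lay below every control library. Elovl2 made up 23.3% to 26.8% in control, 20.8% to 26.8% in HFD and 27.4% to 29.5% in HFD+Pc libraries.

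The mean Elovl3 share was 39.5% ± 11.8 (SD, n = 3) in HFD, 22.7% ± 1.39 in control and 24.1% ± 3.03 in HFD+Pc. The exact two-sided permutation p was 0.1 for HFD against control and for HFD+Pc against HFD, the smallest that 3 against 3 allows, and 0.214 after adjustment over 15 share tests. Of the 15 tests, 7 had groups that did not overlap. The summed Elovl FPKM itself was 783.6 to 945.6 in control, 482, 597.8 and 1025 in HFD replicates 1, 2 and 3 and 694.3 to 844.4 in HFD+Pc libraries, so HFD replicate 3 had the highest sum of the 9 and an Elovl3 share close to that of HFD replicate 1.

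**Figure D4:**
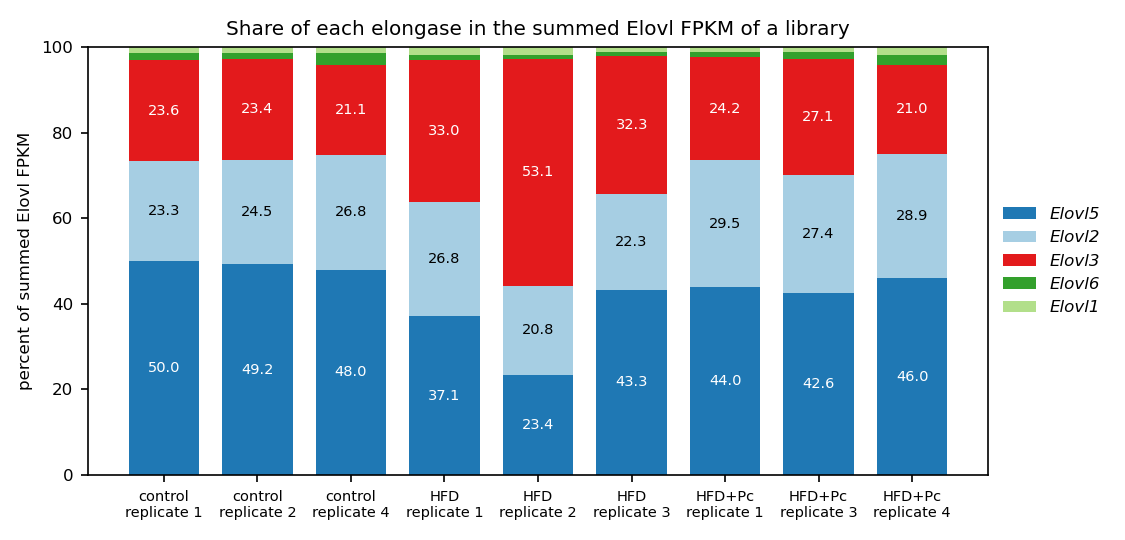
Percent of the summed Elovl FPKM that each elongase makes up (vertical axis) in each of the 9 libraries. The Elovl3 portion is 32.3% to 53.1% in the HFD libraries and 21.0% to 27.1% in the other 6.

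The genes most like each of the 9 were named by Pearson's r over the 9 libraries on log2(FPKM + 1). These values are a description, given without a p, and the points share the group structure and the departure of HFD replicate 3. For Scd1 they were Ugt1a5 (r = 0.968, Spearman's rho = 0.8), Tbl3 (0.967, 0.867), Elovl5 (0.965, 0.867), Fads1 (0.962, 0.917) and Fgf21 (0.951, 0.917). Ugt1a5 shares exons with other Ugt1a genes, so its reads are uncertain, and Tbl3 moved only between 2.81 and 3.15 FPKM. Elovl5 was most like Fgf21 (0.974, 0.967), which encodes a hepatic hormone of fasting and sugar response and stood at 0.796 to 4.42 FPKM, followed by Scd1.

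For Fads1 the nearest were Tbl3 (r = 0.974, Spearman's rho = 0.85) and Fads2 (0.968, but a rho of 0.633). For Fads2 they were Fads1 and Acsl4 (0.956, 0.817), an acyl-CoA synthetase that prefers arachidonic acid. Elovl2 was nearest to Vkorc1l1 (r = 0.95) and Abcb8 (0.936), and Elovl6 to Slc25a11 (0.959) and Abcb8 (0.956). Elovl3 was nearest to Ctnna1 (0.974) and Slc16a10 (0.936), and Elovl1 to Spout1 (0.933). Like Tbl3, some of these moved little: Vkorc1l1 between 9.19 and 12.0 FPKM, Abcb8 between 5.68 and 7.29 and Ctnna1 between 17.6 and 20.7. Scd2 was nearest to Sh2b3 (0.974) and Ecm1 (0.97), and Ecm1 is on the stellate cell list above.

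The partners of the elongases complete each turn of the elongation cycle. Of 5 tested partner genes none passed in HFD against control or in HFD+Pc against HFD. In HFD+Pc against control, where 11.1% of all tested genes were higher and 11.9% lower, 3 were higher: the dehydratases Hacd2 (15.12 ± 0.806 against 10.99 ± 0.568 FPKM, 0.43 ± 0.09, adjusted p = 0.00986) and Hacd3 (0.32 ± 0.10, adjusted p = 0.0478) and the ketoreductase Hsd17b12 (0.47 ± 0.11, adjusted p = 0.0152). The final reductase Tecr was lower (53.97 ± 5.27 against 72.53 ± 3.74 FPKM, -0.42 ± 0.11, adjusted p = 0.0207). The median difference of the 5 was 0.32 against 0.01 over all tested genes.

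Of 5 tested genes of the electron supply to the desaturases, Cyb5r3, the cytochrome b5 reductase, was lower in both diet groups, where 5.35% of all tested genes were lower in HFD and 11.9% in HFD+Pc than in control. It stood at 138, 136 and 152 FPKM in control, 61.3, 75.9 and 96.7 FPKM in HFD and 80.3, 97.8 and 100 FPKM in HFD+Pc libraries, and no diet library reached control. The differences were -0.88 ± 0.16 in HFD against control (adjusted p = 0.0139) and -0.61 ± 0.16 in HFD+Pc against control (adjusted p = 0.0226), and the first was still called with each library left out in turn. Cyb5b, an outer mitochondrial cytochrome b5, was higher in HFD+Pc than in control (0.70 ± 0.18, adjusted p = 0.0229). None of the 5 passed in HFD+Pc against HFD.

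Of 10 genes that supply malonyl-CoA and palmitate, 1 was higher and 0 lower in HFD than in control (4.61% and 5.35% of all tested genes), with a median of -0.48 against 0.00 over all tested genes, and 0 passed in HFD+Pc against HFD. The one was Mid1ip1, an activator of acetyl-CoA carboxylase (0.79 ± 0.19, adjusted p = 0.0374). Without HFD replicate 3 that call was lost, and 0 were higher and 1 lower, Acacb, an acetyl-CoA carboxylase (2.51% and 2.8% of all tested genes). In HFD+Pc against control Mid1ip1 was higher (0.73 ± 0.19, adjusted p = 0.0268) and the mitochondrial citrate carrier Slc25a1 lower (-0.47 ± 0.14, adjusted p = 0.0406), again where 11.1% and 11.9% of all tested genes were. The following were named after their values were seen. Acacb stood at 23.2, 13 and 26.2 FPKM in control, 3.19, 3.99 and 17.7 FPKM in HFD and 8.23, 13 and 10.6 FPKM in HFD+Pc libraries, and in HFD replicates 1 and 2 Acaca, Acly, Acss2, Thrsp and Slc25a1 also lay below all 3 control libraries. Fasn, which makes palmitate, stood at 19.4, 16.7 and 37.8 FPKM in control, 18.7, 23.2 and 52.5 FPKM in HFD and 20.6, 61.4 and 62.9 FPKM in HFD+Pc libraries, so that its HFD replicates 1 and 2 lay within the control range, as they did for Me1. Neither Acacb nor Fasn passed in any comparison with all libraries.

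Of 18 tested genes of the SREBP, LXR and ChREBP regulators, none passed in HFD against control or in HFD+Pc against HFD, with median differences of -0.01 and -0.05. Srebf1, which encodes SREBP-1 and was named after its values were seen, stood at 29.54 ± 5.02 FPKM in control, 38.11 ± 7.11 in HFD and 34.21 ± 9.44 in HFD+Pc. In HFD+Pc against control, where 23.1% of all tested genes passed, 5 of the 18 did, a share near that background. Of these 2 were higher, Nfya, a subunit of the CCAAT factor NF-Y (0.42 ± 0.11, adjusted p = 0.0257), and Insig1, which holds SREBP back in the endoplasmic reticulum (1.18 ± 0.36, adjusted p = 0.0443). The nuclear receptors Nr1h2 (-0.61 ± 0.10, adjusted p = 0.00497), Rxra (-0.47 ± 0.09, adjusted p = 0.0062) and Hnf4a (-0.48 ± 0.11, adjusted p = 0.0135) were lower.

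Further lists cover what becomes of the products. Of 9 tested genes of fatty acid activation, 0 passed in HFD against control, 0 in HFD+Pc against HFD and 2 were higher in HFD+Pc than in control (11.1% of all tested genes), Acbd5 (0.56 ± 0.10, adjusted p = 0.00615) and Acsl3 (0.81 ± 0.22, adjusted p = 0.0293). Acsl4 stood at 8.64, 8.73 and 16.4 FPKM in HFD replicates 1, 2 and 3 against 13.2 to 14.8 FPKM in control, and did not pass with all libraries. Without HFD replicate 3, Acsl4 was lower in HFD than in control and higher in HFD+Pc than in HFD. Of 9 genes of the peroxisomal step that ends docosahexaenoic acid synthesis, 2 were higher in HFD+Pc than in control, where 11.1% of all tested genes were. They were Scp2 (0.41 ± 0.10, adjusted p = 0.018) and Abcd2 (0.85 ± 0.22, adjusted p = 0.024), and 0 passed in the other comparisons. Without HFD replicate 3, 5 of them were higher in HFD+Pc than in control, where 11.6% of all tested genes were. Of 8 tested genes that remodel the polyunsaturated acids of phospholipids, 1 passed in each direction in both comparisons with control (4.61% higher and 5.35% lower of all tested genes in HFD, 11.1% and 11.9% in HFD+Pc). Without HFD replicate 3 the Pla2g6 call in HFD was lost. Pla2g6 was higher and Agpat3 lower in HFD than in control (0.35 ± 0.09, adjusted p = 0.0431, and -0.39 ± 0.08, adjusted p = 0.0191) and in HFD+Pc than in control (0.43 ± 0.09, adjusted p = 0.0105, and -0.43 ± 0.08, adjusted p = 0.00601). Of the remaining relatives, Fads6 (15.8 to 18.9 FPKM over all libraries) and the sphingolipid desaturase Degs1 (27 to 33.2 FPKM), passed in none of the 3 comparisons, and Degs2 was below the filter.

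The calls in these lists differed in how much they rested on single libraries. Called with each of the 9 libraries left out in turn were Cyb5r3 in HFD against control and Hacd2, Nr1h2, Rxra, Hnf4a, Acbd5, Agpat3 and Pla2g6 in HFD+Pc against control. In HFD+Pc against control the call of Hsd17b12 was lost without control replicate 2, and that of Tecr without control replicate 4 or HFD+Pc replicate 1 or 3. Those of Scp2 and Nfya were each kept in 6 of the 9 fits, those of Cyb5b, Mid1ip1, Acsl3 and Abcd2 in 5, that of Cyb5r3 in 4, those of Insig1 and Slc25a1 in 3 and that of Hacd3 in 2, and HFD+Pc replicate 3 was among the libraries whose removal ended the call for each of these 10 genes. In HFD against control the call of Agpat3 was kept in 6 fits and lost without control replicate 2 or 4 or HFD replicate 1, that of Mid1ip1 was kept in 3 and that of Pla2g6 in 0.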

How the data were processed

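Trizol-extracted liver RNA was sequenced with Illumina libraries, per the labels' protocols, and the submitters' processing notes name HISAT2 2.0.5 and GRCm39. The counting tool, its annotation and the use of strand are not given in the sources used here. The deposited values are the authors' FPKM, per the file headers. The genes and gene lists were chosen with earlier results of these data known. The 10988 genes that reached 1 FPKM in 3 or more libraries were tested with limma 3.58.1 (R 4.3.3) on log2(FPKM + 1), which understates changes of low genes, with all 9 libraries in 1 fit and Benjamini-Hochberg adjustment over these genes, at a threshold of 0.05. List genes were named up to 3 per direction among those that passed. Ratios and shares were tested by exact permutation (scipy 1.17.1). Whole reads were recovered from FPKM and GENCODE M21 exonic lengths for 25857 of 26278 genes above 0 (98.4%, tolerance 0.02), and limma-voom on them was an alternative, beside other pseudocounts, filters, scalings, a block for replicate numbers and leaving out single libraries. Flanking genes, transcript comparisons (BLAST 2.17.0+) and elongase shares were added after values had been seen. Promoters are RefSeq's, for 5 of the 9 genes. The fit was tested on simulated data with known changes, drawn with the same dispersion (0.0097) for all genes. It recovered 47.7% to 56.9% of 1.5-fold and 95.4% to 100% of 2-fold changes. A spread like that of Scd1 in HFD, whose SD was 140% of its mean, was not simulated. A few genes that the naming rules or lists include are not reported here.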

Additional observations from a re-analysis of the deposited data

How the results depend on the processing

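With all libraries, 2 genes were lower in HFD than in control. The count was 1 with a pseudocount of 0.1, a filter of 0.1 FPKM, limma-voom or only those 2 groups, each time Scd2. It was 0 with no filter, 4 at a threshold of 0.1, and 0 to 7 with each library left out in turn. The 7 came without HFD replicate 3. HFD+Pc against HFD kept 0 higher except for 0 to 5 with libraries left out. HFD+Pc against control had 1 lower, 2 with only those 2 groups, and 0 to 2 with libraries left out. Elovl6 in HFD against control passed after median-of-ratios rescaling (adjusted p = 0.0487).

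Same-numbered libraries did not deviate together (6 pairs, correlations -0.12 to 0.05), and pairs of other numbers ran from -0.11 to 0.14. With 3 libraries a group these correlations cannot tell whether equal numbers mark a pairing. With the replicate block, 1 gene was lower in HFD than in control (Elovl6, adjusted p = 0.0117), none differed between HFD+Pc and HFD, and 1 was lower in HFD+Pc than in control (Elovl6, -0.74, adjusted p = 0.0172), and Elovl2 in HFD+Pc against control turned to -0.21.

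Over all tested genes, 1095 passed in HFD against control (209 with no filter, 232 with the block, 332 to 1126 with libraries left out), 69 in HFD+Pc against HFD (3, 3 and 5 to 123) and 2538 in HFD+Pc against control (1383, 1058 and 1396 to 2644).

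Of 486 alternatives for single genes, 9 changed the sign, each for a difference that had not passed. With libraries left out, the ranges that crossed 0 were, for HFD+Pc against HFD, -0.06 to 0.11 for Scd2 and -0.16 to 0.04 for Elovl1, and for HFD+Pc against control, -0.21 to 0.04 for Fads2, -0.07 to 0.13 for Elovl2 and -0.27 to 0.05 for Elovl3. Of 96 alternatives for ratios, 8 changed the sign. The Elovl6 to Elovl5 ratio gave 0.19, -0.13 and 0.06 with a pseudocount of 10 in the 3 comparisons. With libraries left out, Fads1 to Fads2 ranged from -0.10 to 0.03 and Elovl2 to Elovl5 from -0.31 to 0.08 in HFD+Pc against HFD, and Elovl6 to Elovl5 from -0.28 to 0.18 in HFD+Pc against control. For the shares, in percentage points, the Elovl3 difference of 16.8 in HFD against control was 9.96 to 20.3 with libraries left out and 12.7 as a share of reads. The Elovl2 difference of -1.61 became 0.801 as a share of reads, and ranges for HFD+Pc against control crossed 0 for Elovl1 (-0.122 to 0.147), Elovl3 (-0.0579 to 2.97) and Elovl6 (-0.621 to 0.0678). The cause of these changes was not tested. The lowest depth behind a tested gene of the 9 was that of Scd2, 137 to 278 reads per library.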
